A study of Homo sapiens with 8 samples.

Results

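The genes described here are 10 members of the tumour necrosis factor (TNF) superfamily, 8 receptors (TNFRSF8, TNFRSF9, TNFRSF4, TNFRSF18, TNFRSF19, TNFRSF1B, FAS and CD40) and 2 ligands (CD70 and TNFSF15). They were taken by symbol from the platform's annotation, where 17 probes carry these symbols, and are 10 of the 18850 named genes with a probe. RNA came from Karpas299, a human anaplastic large cell lymphoma line that carries an NPM1-ALK fusion kinase and displays CD30, the receptor encoded by TNFRSF8. After 16 h of culture, one of 3 additions was made without a change of medium and left for 8 h. These were CD153-Fc, which is the CD30 ligand joined to an antibody Fc part, the antibody T104, which binds and activates CD30, or both, with each protein at 10 µg/ml. The remaining cells were untreated. Each group had 2 biological duplicates of this single line, and with no Fc-only or control antibody group, effects of Fc or of antibody protein as such and effects through CD30 cannot be told apart. The study set the natural ligand beside the antibody, and the question for these genes is which members of the receptor's own family follow CD30 ligation.

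Ligands of this family bind their receptors as trimers and draw the receptor tails together. Receptors without a death domain, such as CD30, 4-1BB and OX40, bind TRAF adaptors and activate NF-kB, and several of them co-stimulate T cells, while death receptors such as FAS bind FADD and caspase-8. Many family members are themselves induced in activated T cells and lymphoma cells.

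Values are log2 intensities after background correction and quantile normalization. Each difference, between groups of 2 arrays, is given ± SE from limma. That SE rests on a spread shared over all 4 groups and not on the duplicates of the groups compared. A probe counted as detected on an array where its detection p-value, a rank among that array's negative control probes, was under 0.01. Between 10713 and 12967 of 48797 probes were detected per array, and duplicates correlated at r = 0.992 to 0.994 in treated groups and 0.977 in untreated cells. Duplicates differed with an SD of 0.243, 0.226 and 0.262 log2 over the features with CD153-Fc, T104 and both, and of 0.445 in untreated cells. Of the 8 markers fixed for the line, 7 were detected on all 8 arrays, ALK and GZMB among them, and the exception was TNFRSF8. Of 13 B cell, monocyte and fibroblast markers with a probe, 12 were detected on 0 arrays and CSF1R on 8. In RNA from whole cultures, a change in the share of cells that express a gene and a change in RNA per cell cannot be told apart.

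TNFRSF9, the gene of the co-stimulatory receptor 4-1BB, was not detected without treatment. On the background-corrected scale it rose at least 2.58-fold with CD153-Fc and at least 10.0-fold with T104. CD70, the ligand of CD27, rose 2.6-fold and 3.31-fold. TNFRSF19, the receptor TROY, fell to a level 1.75-fold lower with CD153-Fc and 3.88-fold lower with T104, and the ligand gene TNFSF15 fell with T104. TNFRSF4, TNFRSF18, FAS and CD40 were not above the detection limit on any array.

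A member could be tested if its probe was detected on at least 2 of the 8 arrays. That held for 6 members (TNFRSF8, TNFRSF9, TNFRSF19, TNFRSF1B, CD70 and TNFSF15), each through 1 probe, and the other 4 could not be tested. TNFRSF9 passed only through the treated groups, so it had to be higher there, and it is part of the counts and medians below. Members were chosen with earlier results of these data known. The counts and medians therefore describe the list and do not test it. By limma with Benjamini-Hochberg adjustment over 10183 features (adjusted p under 0.05), CD153-Fc against untreated cells had 2 of 6 members higher and 1 lower, where 1.37% of all features were called, 1.1% higher and 0.275% lower. T104 against untreated cells had 2 higher and 2 lower, beside 10.5% of all features (5.11% higher and 5.41% lower). Both agents against untreated cells had 3 higher and 1 lower, beside 6.67% (3.82% higher and 2.85% lower). The median change over the 6 tested members was 0.37, 0.38 and 0.53 log2, beside 0.00, -0.02 and -0.02 over all features. These 3 comparisons share the untreated arrays.

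**Figure D1:**
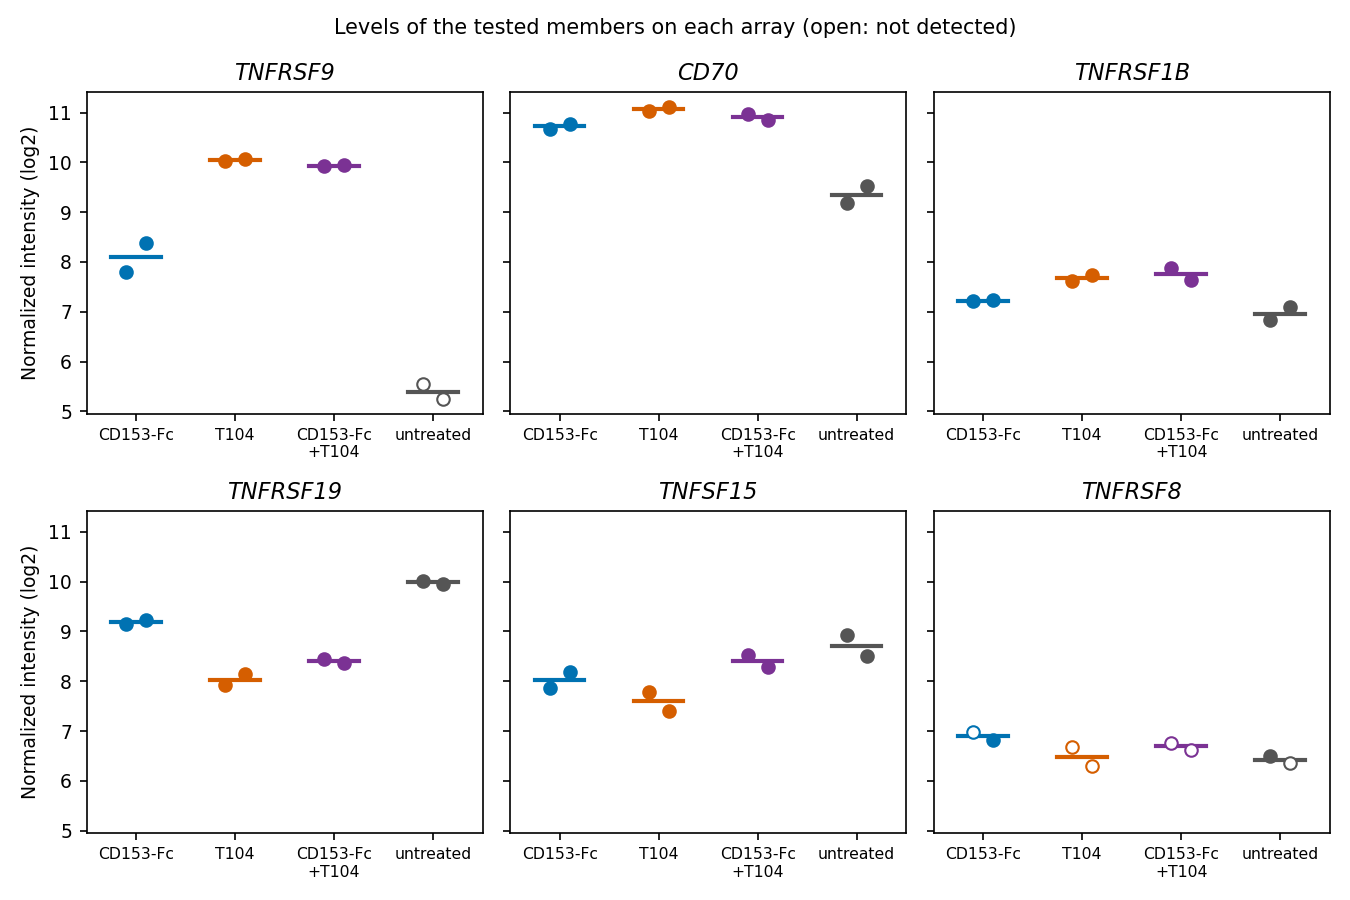
Normalized log2 intensity of the 6 tested members (vertical axes) on each of the 8 arrays, by group (horizontal axes), with filled points where the probe was detected, open points where it was not, and a line at the mean of each group's 2 arrays. TNFRSF9 and CD70 lie higher in all treated groups than in untreated cells, TNFRSF19 lies lower, and TNFRSF8 stays between 6.29 and 6.98.

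TNFRSF8, the gene of the receptor that CD153 and T104 bind, lay near the detection limit. Its probe read 6.98 and 6.82 log2 with CD153-Fc, 6.67 and 6.29 with T104, 6.76 and 6.62 with both agents, and 6.49 and 6.35 in untreated cells. It was detected on 1 of 2 CD153-Fc arrays, 0 T104 arrays, 0 arrays with both and 1 of 2 untreated arrays, with detection p-values from 0.00922 to 0.0171, so the limit of 0.01 divided nearly equal readings. The CD153-Fc arrays were highest, and the T104 arrays overlapped the untreated ones. Its difference was 0.48 ± 0.25 log2 (SE; 95% interval -0.07 to 1.02) with CD153-Fc and 0.06 ± 0.25 (-0.48 to 0.60) with T104, neither of which was called. The labels give the line as CD30-positive, and the transcript's level could not be followed with this probe.

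TNFRSF9 encodes 4-1BB, an inducible co-stimulator of activated T cells that signals through TRAF adaptors. It read 7.79 and 8.39 log2 with CD153-Fc, 10.02 and 10.07 with T104, 9.92 and 9.94 with both agents, and 5.54 and 5.25 in untreated cells. No treated array overlapped an untreated one, and the arrays with T104 stood above those with CD153-Fc alone. On the deposited, unnormalized scale the probe had intensities of 306 and 427 on the CD153-Fc arrays, 1130 and 1240 on the T104 arrays, 969 and 1060 on the arrays with both, and 129 and 111 on the untreated arrays. The fitted change was 2.69 ± 0.21 log2 with CD153-Fc (adjusted p = 1.14e-05 by limma), 4.65 ± 0.21 with T104 (adjusted p = 1.89e-08) and 4.53 ± 0.21 with both (adjusted p = 3.11e-08). The probe passed the filter only through treated arrays, so it had to be higher there. These p-values therefore do not test that direction. Since the probe was not detected in untreated cells, folds are given as bounds on the background-corrected scale, at least 2.58-fold, 10.0-fold and 9.23-fold higher. These bounds make no allowance for sampling error and depend on the processing. Without background correction the changes were 1.62 log2 with CD153-Fc (adjusted p = 1.25e-04 by limma), 3.26 with T104 (adjusted p = 3.79e-08) and 3.15 with both (adjusted p = 6.91e-08). All were still called, but those with T104 and with both were slightly smaller than the bounds.

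The sequence upstream of TNFRSF9 is shown because this gene moved the most of the 6 tested, and those of TNFRSF19 (the start with a kappaB match) and TNFSF15 because these 2 genes moved the other way. The RefSeq promoter table (GRCh38.p14) held starts for 7 of the 10 genes, TNFRSF8, TNFRSF9, TNFRSF18, TNFRSF19, TNFRSF1B, TNFSF15 and FAS, with 10 starts in all. TNFRSF4, CD70 and CD40 had no entry. Each line gives the 250 bases before a start, 5′ to 3′ on the gene's strand, and capitals mark matches to the kappaB consensus motif, the DNA element bound by NF-kB. TNFRSF9 is on the minus strand at chr1:7940840-7941089, TNFRSF19 (start 2 of 2) on the plus strand at chr13:23579110-23579359, and TNFSF15 on the minus strand at chr9:114792531-114792780.
TNFRSF9: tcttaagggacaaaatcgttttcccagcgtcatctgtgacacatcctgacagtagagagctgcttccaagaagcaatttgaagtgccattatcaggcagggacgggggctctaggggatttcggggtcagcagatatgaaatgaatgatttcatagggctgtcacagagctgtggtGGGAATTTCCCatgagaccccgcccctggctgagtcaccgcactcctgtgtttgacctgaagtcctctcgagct
TNFRSF19 start 2: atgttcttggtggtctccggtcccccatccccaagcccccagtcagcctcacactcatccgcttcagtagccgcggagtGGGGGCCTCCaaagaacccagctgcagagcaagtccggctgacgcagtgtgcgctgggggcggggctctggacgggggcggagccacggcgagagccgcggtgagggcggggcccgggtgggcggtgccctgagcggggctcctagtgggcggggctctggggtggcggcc
TNFSF15: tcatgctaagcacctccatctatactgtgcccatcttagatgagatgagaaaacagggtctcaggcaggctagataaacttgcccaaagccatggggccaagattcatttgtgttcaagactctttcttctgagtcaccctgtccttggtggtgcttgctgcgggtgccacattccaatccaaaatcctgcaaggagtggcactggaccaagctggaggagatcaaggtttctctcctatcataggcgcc

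In the TNFRSF9 window the kappaB consensus matched on both strands, at 74 to 65 bases before the start on the gene's strand and, overlapping it, at 73 to 64 on the other. The same window held the AP-1 motif TGANTCA at 44 to 38 bases and the STAT motif TTCNNNGAA at 187 to 179 bases before the start, each of which reads the same on both strands. TNFRSF19 start 2 held a kappaB match at 171 to 162 bases before the start, and start 1, not printed, held none of the 4 motifs. TNFSF15 held none, and the AP-1 motif at 120 to 114 bases. One of 3 FAS starts held a kappaB match as well, so that 3 of the 7 genes had one, at 3 of their 10 starts, while 9.96% of all 35116 starts in the table had one. The AP-1 motif was found at 3 of the 10 starts, beside 6.57% of all starts, and the STAT motif at 1, beside 6.57%. The TATAAA motif was found at 1 of them, that of TNFRSF18 (250 to 245 bases before it), beside 10.7% of all starts. A match is a description of letters in this window, and binding was not measured. Among the called genes, matches lie upstream of TNFRSF9, which rose, and of 1 of the 2 starts of TNFRSF19, which fell.

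The 2 co-stimulatory receptors whose genes neighbour each other among protein-coding genes on chromosome 1, TNFRSF4 (OX40) and TNFRSF18 (GITR), showed no such signal. The brighter TNFRSF4 probe read 6.09 and 6.08 log2 with CD153-Fc, 6.34 and 5.57 with T104, 5.99 and 5.95 with both agents, and 5.82 and 5.76 in untreated cells. Its T104 arrays lay on either side of the untreated ones. All 4 probes of these genes missed the detection limit of 0.01 on every array. At a limit of 0.05, the brighter TNFRSF4 probe was detected on 2 CD153-Fc arrays, 1 T104 array, 2 arrays with both and 2 untreated arrays, and TNFRSF18 on none. The TNFRSF18 probes stayed between 5.04 and 5.48. In a fit of all probes without a filter, TNFRSF4 differed by 0.29 ± 0.22 log2 with CD153-Fc and 0.16 ± 0.22 with T104, and TNFRSF18 by -0.03 ± 0.13 and 0.03 ± 0.13, none of which was called.

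**Figure D2:**
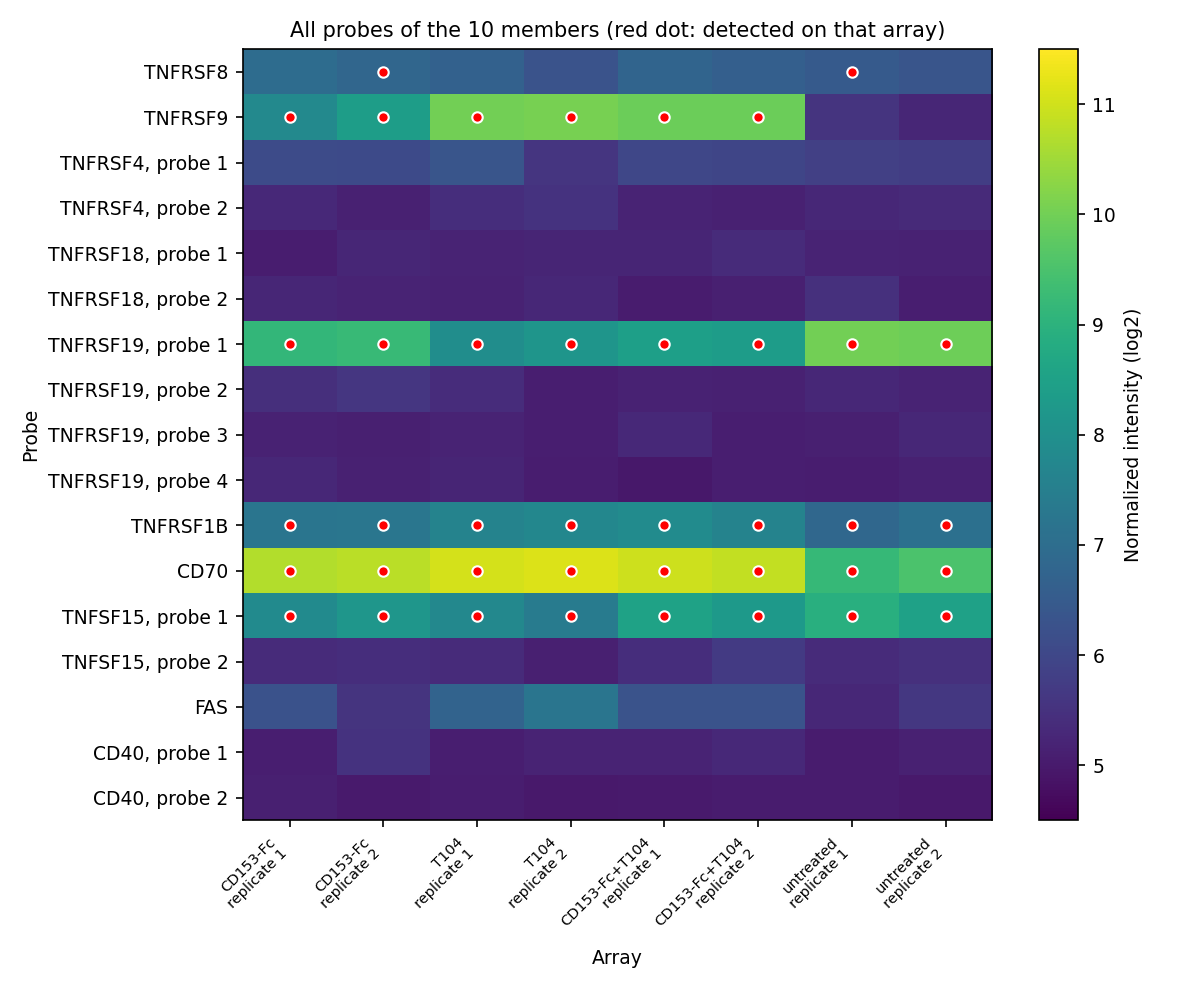
Normalized log2 intensity (colour) of all 17 probes of the 10 members (rows) on the 8 arrays (columns), with a red dot where the probe was detected at a detection p under 0.01. In TNFRSF19 and TNFSF15 a single probe carries the signal, and 11 of the 17 probes were detected on 0 arrays.

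TNFRSF1B, the gene of TNF receptor 2, which binds TNF and lacks a death domain, lies next to TNFRSF8 among protein-coding genes on chromosome 1. It read 7.21 and 7.24 log2 with CD153-Fc, 7.62 and 7.73 with T104, 7.88 and 7.63 with both agents, and 6.84 and 7.09 in untreated cells. All treated arrays lay above the untreated ones, by little with CD153-Fc. The change was called with both agents (0.79 ± 0.21 log2, 1.73-fold, adjusted p = 0.043) and missed the threshold with T104 (0.71 ± 0.21, adjusted p = 0.0507). With CD153-Fc it was 0.26 ± 0.21 (95% interval -0.19 to 0.72). The call with both agents was lost in 4 other settings, with 0.44 log2 under median scaling, and without each of 7 arrays, all but untreated replicate 2 (0.66 to 0.91). The change with T104 was called in 3 other settings (0.71 log2 in each). It was also called without untreated replicate 2 (0.83), in a fit with no spread within the untreated group.

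TNFRSF19 encodes TROY, a receptor best known from the nervous system and skin. It read 9.14 and 9.22 log2 with CD153-Fc, 7.92 and 8.14 with T104, 8.44 and 8.37 with both agents, and 10.01 and 9.96 in untreated cells. The 4 groups did not overlap at any point, with untreated cells highest, then CD153-Fc, both agents and T104. It fell by 1.96 on the log2 scale with T104 (SE 0.16, adjusted p = 7.31e-06), fell by 1.58 with both agents (SE 0.16, adjusted p = 7.54e-05) and fell by 0.80 with CD153-Fc (SE 0.16, adjusted p = 0.0315). The call with CD153-Fc was lost in 3 other settings, with the replicate number as a block among them (adjusted p = 0.0611), and without each of the 6 treated arrays (-0.84 to -0.77 log2, adjusted p up to 0.321). The untreated duplicates differed by 0.06 log2 here. The signal came from 1 of 4 TNFRSF19 probes. The other 3 are annotated to another transcript of the gene and were detected on 0 arrays.

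FAS, the death receptor that binds FASLG, has 1 probe, which was brighter in cells given T104 but did not reach the detection limit of 0.01 on any array. It read 6.26 and 5.56 log2 with CD153-Fc, 6.73 and 7.21 with T104, 6.29 and 6.28 with both agents, and 5.27 and 5.64 in untreated cells. The T104 arrays were highest, and 1 CD153-Fc array lay among the untreated ones. Detection p-values were 0.0198 and 0.103 on the CD153-Fc arrays, 0.0158 and 0.0119 on the T104 arrays, 0.0211 and 0.0184 on the arrays with both, and 0.368 and 0.0711 on the untreated arrays. At a limit of 0.05 the probe was therefore detected on 1 CD153-Fc array, 2 T104 arrays, 2 arrays with both and 0 untreated arrays. In the fit without a filter it differed by 1.52 ± 0.24 log2 with T104 (adjusted p = 0.00177 by limma over 39554 features), 0.83 ± 0.24 with both agents (adjusted p = 0.139) and 0.45 ± 0.24 with CD153-Fc (adjusted p = 0.688). Since all groups were below the limit of 0.01, no fold is given. CD40, a receptor of B cells and antigen-presenting cells, stayed between 4.97 and 5.52 on its 2 probes and was detected on 0 arrays at either limit.

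CD70, the ligand of the co-stimulatory receptor CD27, was detected on all 8 arrays. It read 10.68 and 10.78 log2 with CD153-Fc, 11.04 and 11.12 with T104, 10.98 and 10.86 with both agents, and 9.18 and 9.52 in untreated cells. Every treated array exceeded both untreated arrays, by more than the 0.34 log2 that separated these 2. CD153-Fc changed it by 1.38 ± 0.16 log2 (adjusted p = 4.62e-04), T104 by 1.73 ± 0.16 (adjusted p = 1.80e-05) and both agents by 1.57 ± 0.16 (adjusted p = 7.02e-05). These 3 calls held with each array left out and in the 9 other settings. CD27 itself was detected on 0 arrays (5.02 to 5.43 log2).

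TNFSF15 encodes TL1A, the ligand of the death-domain receptor DR3 (TNFRSF25). Its detected probe read 7.86 and 8.19 log2 with CD153-Fc, 7.78 and 7.41 with T104, 8.53 and 8.29 with both agents, and 8.92 and 8.50 in untreated cells. The single-agent arrays lay below the untreated ones, whereas 1 array with both agents lay between the untreated duplicates. It fell by 1.11 on the log2 scale with T104 (SE 0.22, 2.16-fold lower, adjusted p = 0.00619), a call lost without T104 replicate 2 (-0.93 log2, adjusted p = 0.105). The difference was -0.69 ± 0.22 with CD153-Fc (adjusted p = 0.163) and -0.30 ± 0.22 with both agents (95% interval -0.78 to 0.17). Without untreated replicate 2, the change with CD153-Fc was -0.89 log2 and was called. That fit has no spread within the untreated group, so its call does not show a fall. The untreated duplicates differed by 0.41 log2. The second TNFSF15 probe was detected on 0 arrays. TNFRSF25 was detected on all arrays and was not called (0.36 ± 0.20 log2 with CD153-Fc and 0.25 ± 0.20 with T104).

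The antibody was then set against the ligand, each at 10 µg/ml, which need not be equal in molecules or in receptor binding. T104 gave more TNFRSF9 than CD153-Fc (1.96 ± 0.21 log2, 3.88-fold, adjusted p = 6.73e-04) and less TNFRSF19 (-1.15 ± 0.16, adjusted p = 0.00456). These 2 of 6 members were called beside 0.609% of all features (0.54% higher and 0.0687% lower). The TNFRSF19 call was lost without each of the 4 arrays compared (-1.26 to -1.05 log2), and the TNFRSF9 call held with each array left out. CD70 differed by 0.35 ± 0.16 log2 (95% interval 0.00 to 0.70), TNFRSF1B by 0.44 ± 0.21 (-0.01 to 0.90), TNFSF15 by -0.43 ± 0.22 (-0.90 to 0.05) and TNFRSF8 by -0.42 ± 0.25 (-0.96 to 0.13), and none of these was called.

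**Figure D3:**
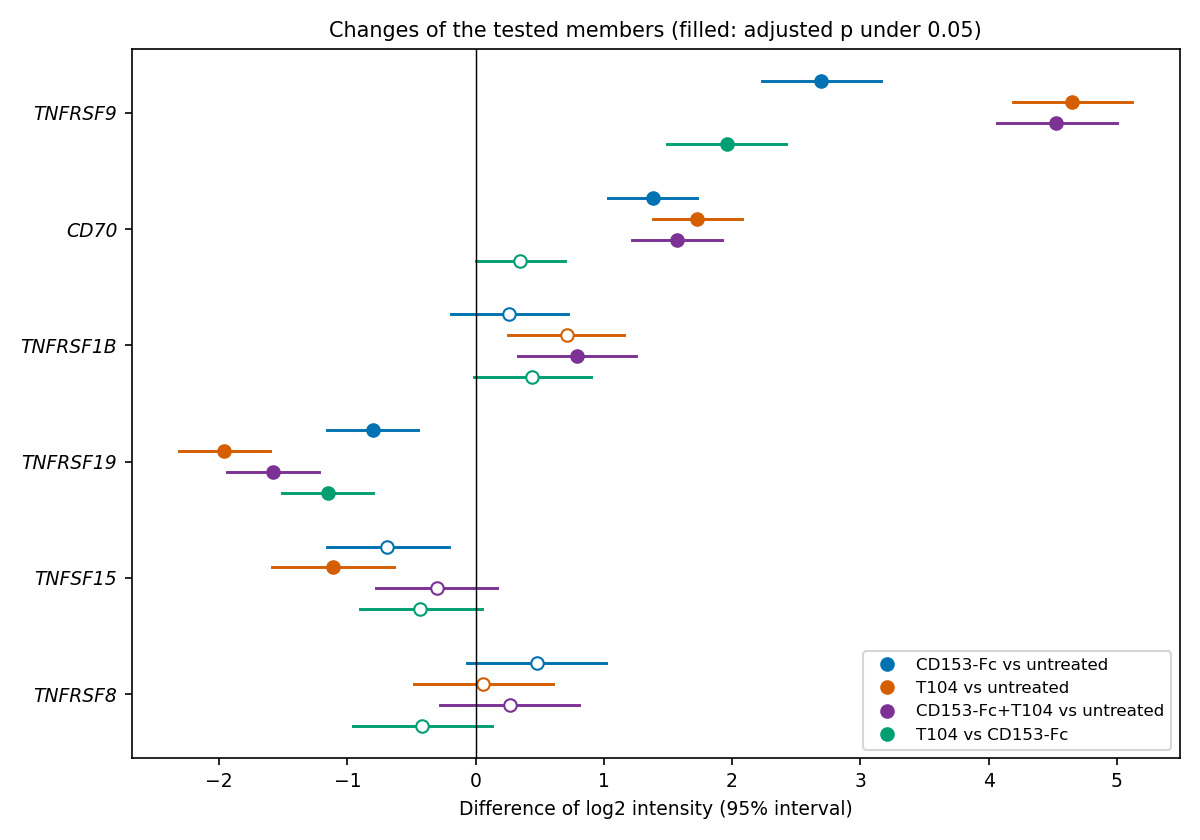
Difference of log2 intensity (horizontal axis) for the 6 tested members (rows), with 95% intervals from limma, in 4 comparisons. Filled points passed an adjusted p under 0.05. TNFRSF9 and TNFRSF19 have larger changes with T104 than with CD153-Fc, and the intervals of TNFRSF8 include 0 in all 4.

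Adding T104 to CD153-Fc raised TNFRSF9 over CD153-Fc alone (1.84 ± 0.21 log2, 3.58-fold, adjusted p = 0.003), the 1 call among 6 members beside 0.187% of all features. This call was lost without CD153-Fc replicate 1 (1.54 log2) and without replicate 1 (1.85) or 2 (1.83) of the cells with both agents. TNFRSF19 differed by -0.77 ± 0.16 log2 (adjusted p = 0.136). It was called at the same size in the fit of these 2 groups alone (adjusted p = 0.00731 by limma). That fit leaves out the spread of the untreated duplicates and called 198 features in place of 19. A call without untreated replicate 1 or 2, also at -0.77 log2, comes from a fit with no spread within that group and does not show a difference. Adding CD153-Fc to T104 gave 0 calls among the 6 members in limma, beside 0% of all features, with 2 members and 418 features at an unadjusted p under 0.05. Those members were TNFSF15 (0.81 ± 0.22 log2, unadjusted p = 0.00275) and TNFRSF19 (0.38 ± 0.16, unadjusted p = 0.0396), both nearer to untreated cells with both agents than with T104 alone. TNFSF15 was called there only without untreated replicate 1 or 2, in fits with no spread within that group, and these calls do not show a difference. For TNFRSF9 the difference was -0.12 ± 0.21 log2 (95% interval -0.58 to 0.35), and for CD70 -0.16 ± 0.16 (-0.51 to 0.19).

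In the interaction, the response to both agents minus the sum of the single responses, 4 of 6 members were called, beside 1.34% of all features (0.52% higher and 0.815% lower). Both genes that rose were below the sum, TNFRSF9 by -2.81 ± 0.30 log2 (adjusted p = 3.46e-04) and CD70 by -1.54 ± 0.23 (adjusted p = 0.00467). Both genes that fell were above it, TNFRSF19 by 1.18 ± 0.23 (adjusted p = 0.0264) and TNFSF15 by 1.50 ± 0.31 (adjusted p = 0.0352). The TNFRSF9 term includes an untreated level below the detection limit, so its size is not a measured one, and it was -1.72 without background correction. Its call held in the settings that tested it and with each array left out. The CD70 call was lost without CD153-Fc replicate 2 (-1.49), T104 replicate 1 (-1.58) or 2 (-1.50), or replicate 2 with both agents (-1.48), and those of TNFRSF19 (1.08 to 1.29) and TNFSF15 (1.32 to 1.68) without each of the 6 treated arrays. Median scaling and the fit without a filter also ended the calls of TNFRSF19 (adjusted p = 0.0533 and 0.115) and TNFSF15 (0.0805 and 0.0721), and the fit without a trend that of TNFSF15 (0.0508).

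The wider family was taken from a list of 29 receptors and 18 ligands, of which 46 have a probe. Outside the 10 members, 6 of 21 receptors and 4 of 15 ligands were detected on all 8 arrays, and 13 and 8 on none. Of the 14 that could be tested, 2 rose with CD153-Fc (LTB and TNF), 5 rose with T104 and with both agents, and 0 fell by limma in these 3 comparisons. Over all features, 1.1%, 5.11% and 3.82% were called higher and 0.275%, 5.41% and 2.85% lower in them. The median change of these 14 was 0.23, 0.24 and 0.12 log2, beside 0.00, -0.02 and -0.02 over all features. LTB, a ligand subunit of the lymphotoxin beta receptor, read 9.69 and 9.67 log2 with CD153-Fc, 10.68 and 10.77 with T104, 10.68 and 10.44 with both agents, and 7.03 and 7.67 in untreated cells. LTA, the gene of lymphotoxin alpha, was not detected in untreated cells and was at least 4.69-fold higher with T104. Like TNFRSF9, it passed the filter only through treated arrays, so it had to be higher there. TNF rose by 2.04 ± 0.18 log2 with T104 and TNFSF10, the death ligand TRAIL, by 1.06 ± 0.16. The fifth gene with a rise was TNFRSF10B, a TRAIL receptor (0.82 ± 0.16), named after its values were seen. TNFRSF1A, the death-domain receptor for TNF, had -0.03 ± 0.16 log2 with T104 and was not called.

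**Figure D4:**
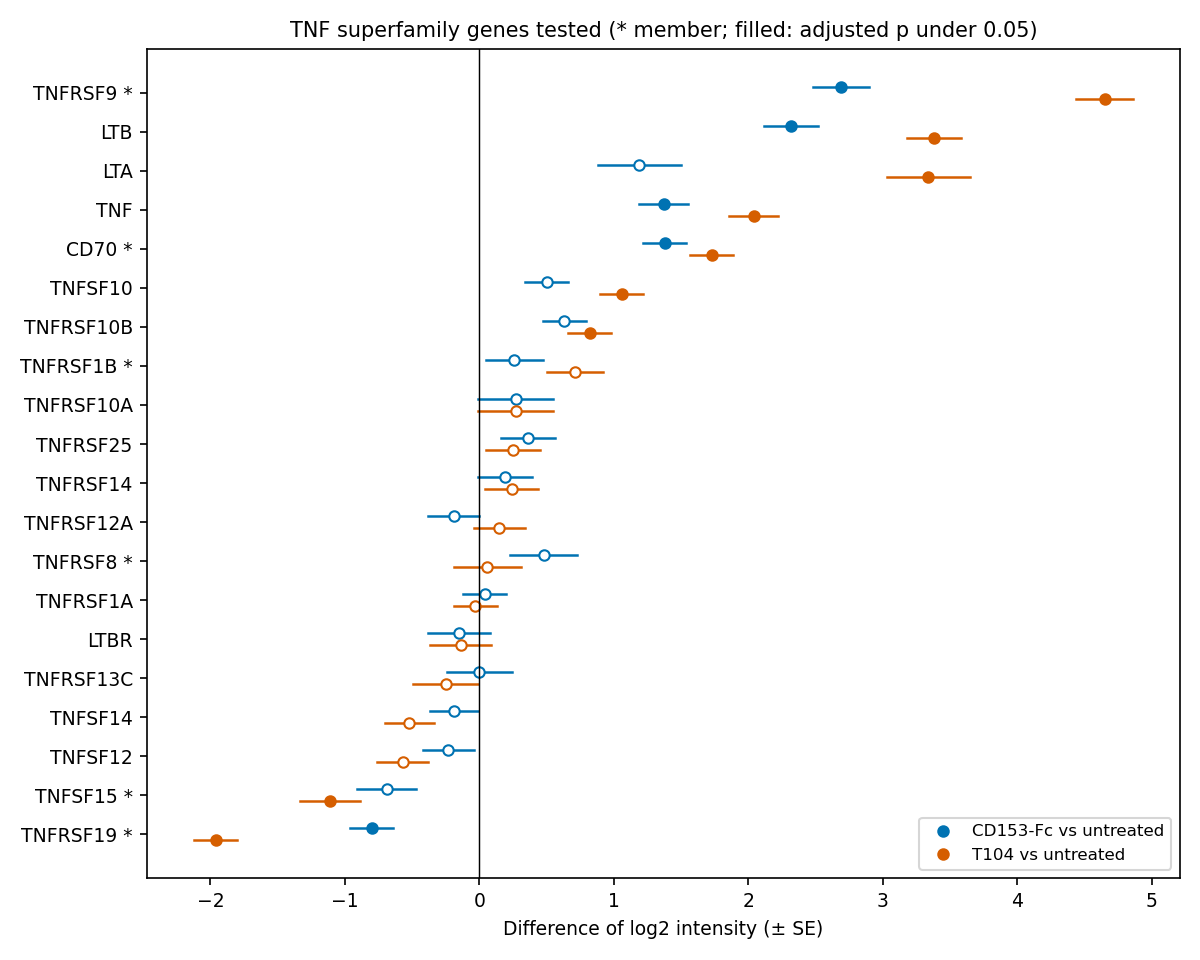
Difference of log2 intensity (horizontal axis, ± SE) of the 20 tested TNF superfamily genes (rows, ordered by the change with T104, members starred) with CD153-Fc and T104 against untreated cells. Filled points passed an adjusted p under 0.05, and LTB, LTA, TNF and CD70, all ligands, stand with TNFRSF9 at the top.

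The binding partners of the members were looked up on the same arrays. The ligands TNFSF8 (CD153 itself, 5.05 to 5.70 log2), TNFSF9 (the 4-1BB ligand, 5.83 to 6.71), TNFSF4 (the OX40 ligand, 5.22 to 7.17), TNFSF18 (the GITR ligand, 5.08 to 5.46) and FASLG (5.51 to 6.57) were detected on 0 arrays. Of these, TNFSF4 had the widest range. CD40LG, the gene of the CD40 ligand, has no probe. Among the members, TNFRSF1B had its ligands TNF (8 arrays) and LTA (5 arrays) detected, and TNFSF15 its receptor TNFRSF25 (8 arrays). By position, 5 of the 10 genes lie on chromosome 1. Neighbours are given in the order of protein-coding genes only. TNFRSF8 and TNFRSF1B are direct neighbours there, as are TNFRSF18 and TNFRSF4. CD70 lies between TNFSF9 and TNFSF14 on chromosome 19, and TNFSF15 beside TNFSF8 on chromosome 9. Among these neighbours of CD70, TNFSF9 was not detected and TNFSF14 had -0.19 ± 0.18 log2 with CD153-Fc and -0.52 ± 0.18 with T104, neither called.

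Genes outside the family with the most similar course were found by the root mean square difference of gene-centred log2 levels over the 8 arrays, among 8489 named genes. For TNFRSF9 they were IL4I1, a secreted amino acid oxidase (0.29 log2), and RGS1, a brake on G protein signalling (0.36). Neither IL4I1 nor TNFRSF9 was detected in untreated cells, and IL4I1 was at least 3.17-fold higher with CD153-Fc and at least 9.76-fold with T104, beside at least 2.58-fold and 10.0-fold for TNFRSF9. For CD70 they were KIAA1217 (0.10) and CBLN3 (0.13), for TNFRSF19 ASB13 (0.14) and the Src family kinase gene BLK (0.15), and for TNFSF15 TDP1 (0.14) and FKBP14 (0.15). BLK differed by -0.87 log2 with CD153-Fc and -1.86 with T104, beside -0.80 and -1.96 for TNFRSF19. TNFRSF1B was nearest to ABHD17C (0.032) and ABCC11 (0.041), and TNFRSF8 to PRAF2 (0.075) and ADAM9 (0.093), where small distances also reflect the small changes of these 2 members. No test was made of this likeness, and similar changes follow from how these genes were picked.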

How the data were processed

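RNA of Karpas299 cells was measured on 8 HumanHT-12 v3 arrays, 2 per group, grouped by sample title. The authors deposited probe intensities on a linear scale that were not normalized, with a detection p-value per probe and array, and a second table of processed intensities that served as an alternative. BeadStudio is named in the series design and GenomeStudio per the submitters' processing notes. Column medians of the processed table were 119.685 to 119.716, its log2 values correlated with the unnormalized ones at r of at least 0.999553, and its normalization method stays unknown. Intensities were processed with neqc of limma 3.58.1 in R 4.3.3 (background from the detection p-values, offset 16, quantile normalization, log2). The 12543 probes detected on at least 2 arrays gave 10183 features, the brightest kept probe standing for each gene. Platform symbols were updated through RefSeq (GRCh38.p14, names and neighbours only). Of the probes, 28093 had 1 symbol, 13 several and 20691 none.

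Group means without covariates were fitted by limma, with an intensity trend, to all 8 arrays (4 residual and 8.78 prior degrees of freedom), with 7 contrasts and Benjamini-Hochberg adjustment over all features. The shared spread averages over groups, although the untreated duplicates differed more. A bound ("at least") sets the brighter group's mean against, for each array of the dimmer group, its lowest detected signal or, where higher, the probe's signal there. Bounds are on the background-corrected scale and make no allowance for sampling error. The number of arrays limits the precision. The script was tested on simulated data. All 10 members were named, with up to 4 other family genes by largest called change with T104, up to 2 more with CD153-Fc, and 2 genes of nearest course per tested member. Members and lists were chosen with earlier results of these data known. Alternatives covered background, scaling, the authors' processed intensities, filters, probe choice, the groups fitted, a replicate block, the variance prior, each array left out and a detection limit of 0.05.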

Additional observations from a re-analysis of the deposited data

Results flagged for a closer look

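TNFRSF9, CD70, TNFRSF19 and TNFSF15 responded to T104 differently with and without CD153-Fc, by the interaction term of limma (adjusted p under 0.05). The effect of T104 in the presence of CD153-Fc minus its effect alone was -2.81 log2 for TNFRSF9, -1.54 for CD70, 1.18 for TNFRSF19 and 1.50 for TNFSF15. The untreated level of TNFRSF9 was below the detection limit, so the size of its term is not a measured one, and it was -1.72 without background correction. These terms use the untreated arrays, whose duplicates differed by 0.30, -0.34, 0.06 and 0.41 log2 (replicate 1 minus replicate 2) for these genes. Over the fits with an array left out, the terms ranged from -3.11 to -2.51 for TNFRSF9 and -1.71 to -1.37 for CD70. They ranged from 1.08 to 1.29 for TNFRSF19 and 1.29 to 1.70 for TNFSF15. A fit without an untreated array has no spread within that group, the one whose duplicates differed most. Calls in it therefore cannot show whether the terms depend on the untreated arrays. Without each of the 6 treated arrays in turn, TNFRSF19 and TNFSF15 were not called, CD70 was not called without 4 of them, and TNFRSF9 was called.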

How the results depend on the processing

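Against untreated cells, the other settings called 2 to 3 members with CD153-Fc (3 reported), 4 to 5 with T104 (4 reported) and 3 to 4 with both (4 reported). In all settings the count stayed within 1.5 times of the reported one, a wide margin for counts this small. In the other comparisons it moved by more in some settings or with an array left out. For both agents against CD153-Fc and for the interaction, it did so in most fits with an array left out. Requiring detection on all 8 arrays left 1 call in T104 against CD153-Fc and 0 in both agents against CD153-Fc, since TNFRSF9 was then not tested. The fit of the 2 groups alone gave 2 calls in both agents against CD153-Fc, and the interaction kept 2 calls under median scaling and 2 without a filter. With each array left out, calls ranged from 2 to 4 (CD153-Fc), 3 to 5 (T104) and 3 to 4 (both) against untreated cells, 1 to 2 for T104 against CD153-Fc, 0 to 2 for both against CD153-Fc, 0 to 1 for both against T104 and 1 to 4 for the interaction. Changes that turned sign were all uncalled: TNFRSF8 with T104 was -0.19 log2 under median scaling, -0.13 to 0.25 with an array left out, with -0.13 without T104 replicate 1 and -0.01 without untreated replicate 2, TNFRSF8 with both agents -0.04 under median scaling, and TNFRSF1B in both against T104 -0.03 under median scaling and -0.04 to 0.21 with an array left out, lowest without replicate 1 of both. The cause was not tested. Of 358 member values in other settings, 339 kept direction and side of the threshold, 12 lost a call, 4 gained one and 3 turned sign. With an array left out, 290 of 336 kept both, 37 lost a call, 6 gained one and 3 turned sign.

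Under median scaling the median change of all features against untreated cells was -0.19 (CD153-Fc), -0.20 (T104) and -0.31 log2 (both), in place of 0.00, -0.02 and -0.02, and the calls over all features became 57 higher and 33 lower (112 and 28 in the reported fit), 317 and 910 (520 and 551), and 210 and 1428 (389 and 290). In the interaction they became 21 and 53 (53 and 83). With the groups of a comparison alone, calls were 33, 399 and 180 against untreated cells, 412 in T104 against CD153-Fc, 198 in both against CD153-Fc and 30 in both against T104. With an array left out they ranged from 37 to 2624, 286 to 3419 and 188 to 3345 against untreated cells, 10 to 369 in T104 against CD153-Fc, 1 to 262 and 0 to 62 in both against CD153-Fc and T104, and 26 to 1722 in the interaction. Without a filter there were 92 calls with CD153-Fc (140 reported) and 83 in the interaction (136), and without a trend 90 in the interaction and 11 in both against CD153-Fc (19). Detection on all 8 arrays left 41 in T104 against CD153-Fc (62) and 9 in both against CD153-Fc, where median scaling also left 9. Replicate numbers did not pair the arrays (correlations of same-numbered deviations -0.0987 to 0.00719). The replicate block gave 2 member calls with CD153-Fc, 4 with T104, 3 with both, 2 in T104 against CD153-Fc, 1 and 0 for both against CD153-Fc and T104, and 4 in the interaction, and 88 in place of 140 calls over all features with CD153-Fc.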
